A study of Homo sapiens with 30 samples.

Results

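The 39 genes described here mark what kind of cell a cell is: 13 mark epithelial cells in general, 11 mark the intestinal epithelium, and 15 mark mesenchymal cells or the shift of epithelial cells towards them. They were taken as a list of gene symbols, and all 39 were found among the 30373 genes of the table. The study asked what loss of SUMO conjugation does to gene expression in cancer cell lines, using ML-792 (ML00754792), an inhibitor of the enzyme that activates SUMO. Messenger RNA was sequenced in 30 libraries, 3 per group, described as biological triplicates.

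The 16 h experiment had 6 groups: HCT116 (a colorectal cancer line), COLO205 (a colon cancer line) and MDAMB231 (a breast cancer line), each given 500 nM ML-792 or 0.01% DMSO as the vehicle. The 3.5 h experiment had 4 groups, all HCT116: DMSO or 500 nM ML-792, without or with heat shock. For heat shock, cells exposed to drug or vehicle for 2 h were kept at 43 °C for 0.5 h and recovered at 37 °C for 1 h. Each tissue was represented by 1 or 2 established lines, so a difference between lines is a difference between these cultures. Values are FPKM, the fragments counted for a gene scaled to transcript length and to the fragments of the library.

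Epithelial cells adhere through the cadherin CDH1 and the claudins of tight junctions, and carry keratin filaments of KRT8, KRT18 and KRT19. Transcription factors such as GRHL2, OVOL1 and ELF3 support this state, while ZEB1, ZEB2, SNAI2 and TWIST1 repress epithelial genes in the epithelial-mesenchymal transition, in which vimentin (VIM), N-cadherin (CDH2) and fibronectin (FN1) rise. SUMO conjugation is a reversible protein modification found on many transcription factors and corepressors, and CDX1 and CDX2 are the homeobox factors that specify the intestine.

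The ZEB and SNAI factors bind the E-box letters CACCTG, which read CAGGTG on the opposite strand. Promoter windows of 300 bases (250 before and 50 after the start, RefSeq, GRCh38.p14) were found for 23 of the 39 genes. Of all 35116 windows of that table, 20.6% held either form at least once, counted on both strands. The 5 windows printed here belong to epithelial and intestinal genes on which the results turn: ELF3 (chr1:202010337-202010636, plus strand), CLDN7 (chr17:7262429-7262728, minus strand), CDX2 (chr13:27969266-27969565, minus strand), KRT20 (chr17:40885193-40885492, minus strand) and LGALS4 (chr19:38812896-38813195, minus strand). E-box letters are in capitals.
ELF3: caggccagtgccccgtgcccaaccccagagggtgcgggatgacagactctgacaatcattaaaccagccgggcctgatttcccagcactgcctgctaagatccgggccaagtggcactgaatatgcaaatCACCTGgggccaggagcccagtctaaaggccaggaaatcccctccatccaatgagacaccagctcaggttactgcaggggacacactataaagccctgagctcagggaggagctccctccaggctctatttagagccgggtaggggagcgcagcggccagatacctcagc
CLDN7: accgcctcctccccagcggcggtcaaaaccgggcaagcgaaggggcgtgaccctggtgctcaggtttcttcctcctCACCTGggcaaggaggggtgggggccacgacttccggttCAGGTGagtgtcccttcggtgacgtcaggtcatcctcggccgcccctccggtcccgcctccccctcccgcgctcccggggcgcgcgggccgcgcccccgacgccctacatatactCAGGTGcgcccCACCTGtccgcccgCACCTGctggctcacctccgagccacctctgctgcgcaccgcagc
CDX2: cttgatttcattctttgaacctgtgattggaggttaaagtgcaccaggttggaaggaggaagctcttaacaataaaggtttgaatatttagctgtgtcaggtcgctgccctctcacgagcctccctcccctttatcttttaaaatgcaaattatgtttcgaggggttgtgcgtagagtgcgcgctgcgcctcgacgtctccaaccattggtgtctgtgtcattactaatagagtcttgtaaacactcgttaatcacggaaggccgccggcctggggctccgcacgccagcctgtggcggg
KRT20: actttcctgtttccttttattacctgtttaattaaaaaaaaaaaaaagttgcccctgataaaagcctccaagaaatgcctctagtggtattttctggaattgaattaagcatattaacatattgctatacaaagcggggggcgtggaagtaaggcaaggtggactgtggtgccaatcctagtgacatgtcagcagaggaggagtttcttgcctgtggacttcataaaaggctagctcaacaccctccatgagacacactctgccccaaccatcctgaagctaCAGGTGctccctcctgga
LGALS4: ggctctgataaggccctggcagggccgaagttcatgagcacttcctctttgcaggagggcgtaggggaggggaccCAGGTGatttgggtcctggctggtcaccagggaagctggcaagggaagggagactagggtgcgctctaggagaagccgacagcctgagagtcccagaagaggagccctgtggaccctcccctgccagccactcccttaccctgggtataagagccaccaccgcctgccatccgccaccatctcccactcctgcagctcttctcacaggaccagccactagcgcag
The CLDN7 window held 5 of these matches, a number reached by 0.094% of all windows. The ELF3, KRT20 and LGALS4 windows held 1 each and the CDX2 window none. A second CLDN7 start listed in the same table (chr17:7263164-7263463, minus strand) had no match. Of the members' windows, 3 of 6 epithelial (50%), 4 of 7 intestinal (57.1%) and 4 of 22 mesenchymal (18.2%) held the letters, beside the 20.6% of all windows. The mesenchymal windows came from 11 genes, so several share a gene. The letters were searched as a description and no binding was measured.

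Depth, estimated from the steps between low FPKM values and relative to 1 HCT116 DMSO library of 16 h, was 0.809 to 1.05 in the 16 h experiment, 1.11 to 1.66 in the heat-shocked libraries and 1.45 to 2.21 in their controls. Each library had 11535 to 12323 genes at 1 FPKM or more, and replicates correlated at 0.996 or higher (Pearson, log2 scale). The median SD between replicates was 0.0425 to 0.0697 on the log2 scale in the 8 groups without heat shock, against 0.0941 and 0.115 in the heat-shocked groups. Gene tests used limma on log2(FPKM + 1) with Benjamini-Hochberg adjustment over all genes tested, and "rose" or "fell" is used for an adjusted p under 0.05. This scale understates the fold change of genes near or under 1 FPKM. The filter (1 FPKM in at least 3 libraries of the fit) kept 35 of the 39 genes at 16 h, 24 at 3.5 h and 23 where both times were fitted together.

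In vehicle, the 3 lines formed an order for most markers, as the heat map of all 39 genes by library shows. COLO205 had the highest level of most epithelial and intestinal genes, MDAMB231 that of most mesenchymal genes, and HCT116 lay between them for most epithelial and mesenchymal genes while lacking nearly all intestinal markers. By mean DMSO level, COLO205, labelled colon, had 9 of the 11 intestinal genes at 1 FPKM or more, and MDAMB231, labelled breast, had 0. HCT116, although labelled colorectal, had 9 of the 11 under 0.3 FPKM in each of its 6 libraries of 16 h (TFF3, CDX1 and CEACAM6 listed at 0) and KRT20 under 1 FPKM. In bulk RNA, fewer cells that express a gene and less RNA per cell cannot be told apart.

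**Figure D1:**
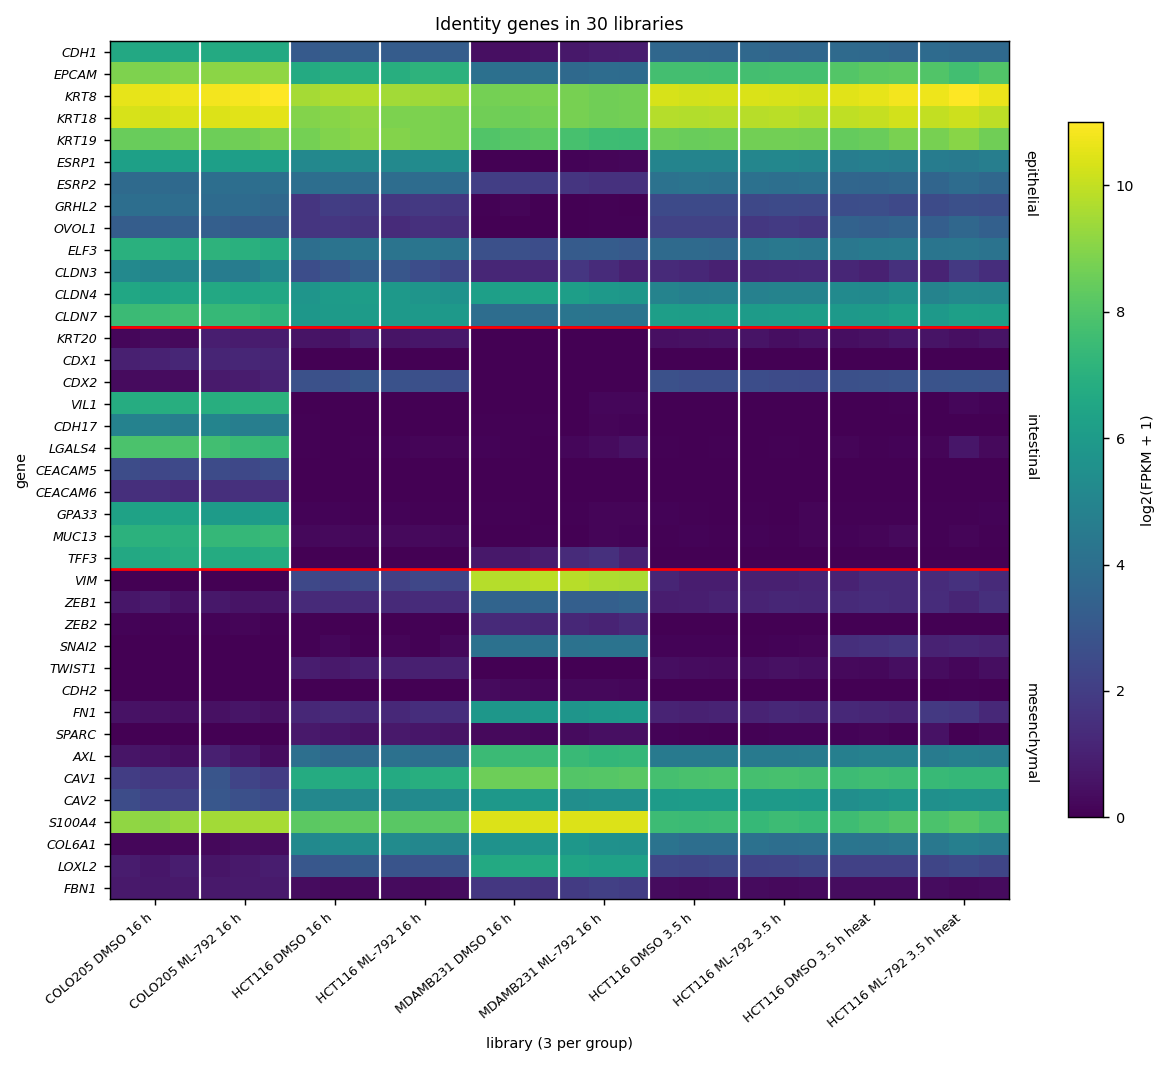
Levels of the 39 identity genes (rows, in 3 classes divided by red lines) in the 30 libraries (columns, 3 per group, groups divided by white lines), coloured by log2(FPKM + 1). The intestinal block is bright in COLO205 only, apart from CDX2, which is brightest in HCT116, and the mesenchymal block is brightest in MDAMB231.

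CDH1, the adhesion molecule of epithelial junctions, stood at 94.4, 97.0 and 99 FPKM in the COLO205 DMSO libraries. HCT116 had 7.73, 8.39 and 8.69 FPKM. MDAMB231 had 0.368, 0.387 and 0.461 FPKM. No library of a line overlapped with another line, and the COLO205 mean was 11.7 times the HCT116 mean and 239 times the MDAMB231 mean. EPCAM, a surface glycoprotein used to isolate carcinoma cells, followed the same order. It read 448, 475 and 478 FPKM in COLO205, 105, 115 and 119 in HCT116, and 14.8, 15.1 and 15.9 in MDAMB231. ESRP1, a splicing factor that enforces epithelial isoforms, was at 73.3 FPKM in COLO205, 35.5 in HCT116 and 0.0252 in MDAMB231, the largest epithelial difference of MDAMB231 from either other line on the log2 scale. ELF3, an ETS-family factor of epithelia, was at 123 FPKM in COLO205, 16.8 in HCT116 and 5.35 in MDAMB231.

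Against HCT116, COLO205 had 22 of 35 tested members higher and 11 lower, where 84.9% of all genes tested differed (39.4% higher, 45.5% lower). MDAMB231 against HCT116 had 14 higher and 14 lower (83.6% of all genes, 38.1% higher and 45.5% lower) and MDAMB231 against COLO205 had 12 higher and 22 lower (86.4%, 41.9% higher and 44.5% lower). Most genes separate these lines, so the counts describe direction more than frequency, and an intestinal or mesenchymal gene that passed the filter through a single line had to differ. The epithelial exceptions were KRT19, a simple-epithelium keratin, which was lower in COLO205 than in HCT116, and ESRP2, the paralogue of ESRP1, whose difference of -0.17 (log2, adjusted p = 0.00212) turned to 0.08 (adjusted p = 0.0958) once the trend on GC content and length was removed. CLDN4, a tight-junction claudin, was kept by MDAMB231 at 72.7, 78.1 and 82.4 FPKM, above the HCT116 mean of 62.2 and not past the test against the COLO205 mean of 88.0 (adjusted p = 0.126). MDAMB231 also kept the keratins, with KRT8 at 430 FPKM, KRT18 at 391 and KRT19 at 279. GENCODE names 50 pseudogenes after KRT8, 67 after KRT18 and 5 after KRT19, and the treatment of reads shared with them is not stated, so the keratin levels are uncertain.

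Among intestinal genes, VIL1 (villin, an actin bundler of microvilli) was at 111, 114 and 117 FPKM in COLO205 and at no more than 0.0244 FPKM in any DMSO library of HCT116 or MDAMB231 at 16 h. LGALS4, a galectin of the gut epithelium, was at 235 FPKM in COLO205 and MUC13, a membrane mucin, at 129. GPA33, an intestinal surface antigen, was at 81.4 FPKM, TFF3, a goblet-cell trefoil peptide, at 106, and CDH17, the liver-intestine cadherin, at 26.8. The exception was CDX2. Its HCT116 DMSO libraries read 5.44, 5.53 and 6.63 FPKM, COLO205 read 0.267, 0.268 and 0.288, and MDAMB231 was listed at 0 in all 3. CDX1 was read in COLO205 alone (1.11 ± 0.141 FPKM, SD, n = 3), so each colorectal line carried mainly 1 of these 2 related factors. CEACAM5 and CEACAM6, adhesion molecules with closely related sequences, were at 4.48 and 1.70 FPKM in COLO205, and reads that fit both may be split uncertainly between them.

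VIM, the intermediate filament of mesenchymal cells, read 858, 864 and 931 FPKM in MDAMB231. HCT116 read 3.60, 4.23 and 4.27 FPKM, and COLO205 was listed at 0 in 2 libraries with 0.0148 in the other. ZEB1, a repressor of CDH1, read 9.88, 10.6 and 10.7 FPKM in MDAMB231, 1.45, 1.47 and 1.51 in HCT116, and 0.465, 0.578 and 0.729 in COLO205. SNAI2, a zinc-finger repressor of the same pathway, had means of 16.2 FPKM in MDAMB231, 0.0734 in HCT116 and 0.00986 in COLO205. The receptor kinase AXL (181 FPKM), FN1 (54.9 FPKM), the collagen cross-linking enzyme LOXL2 (104 FPKM) and the caveola protein CAV1 (378 FPKM) were also highest in MDAMB231. CAV1 and COL6A1, a collagen VI chain, separated COLO205 from HCT116 most, at 2.61 against 106 FPKM and 0.146 against 39.1 FPKM. The classical markers CDH2 and SPARC, a matrix glycoprotein, were low in all 3 lines: no 16 h library exceeded 0.235 FPKM for CDH2 or 0.664 for SPARC, and neither passed the filter. With no filter, CDH2 was higher in MDAMB231 than in HCT116 (0.22 ± 0.023, adjusted p = 3.31e-07) and COLO205 (0.23 ± 0.023, adjusted p = 1.84e-07). SPARC was lower in MDAMB231 than in HCT116 (-0.40 ± 0.05, adjusted p = 2.47e-06) and higher than in COLO205 (0.25 ± 0.05, adjusted p = 0.000284). TWIST1, a helix-loop-helix factor of mesenchyme, was listed at 0 in every COLO205 and MDAMB231 library and was read in HCT116 at 0.689, 0.848 and 0.870 FPKM.

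Breast markers as a list did not single out the breast line, although KRT7, a glandular keratin, did. Of 5 tested among 12 listed, 2 were higher in MDAMB231 than in HCT116 and 1 was lower. The higher ones were KRT7 (296 against 2.12 FPKM) and the luminal factor GATA3 (3.08 against 0.551 FPKM). Against COLO205, 1 was higher in MDAMB231 and 4 were lower. KRT7 stood at 296 against 2.41 FPKM, while GATA3 (3.08 against 5.33 FPKM), XBP1 (30.2 against 153 FPKM), ERBB2 (19.9 against 50.4 FPKM) and FOXA1 (0.00658 FPKM in MDAMB231) were lower. The oestrogen receptor ESR1 was at no more than 0.00706 FPKM in any DMSO library of 16 h. Of 34 other epithelial genes, all tested, 31 were lower in MDAMB231 than in COLO205 and 2 higher. The 35 other mesenchymal genes, 24 of them tested, varied with the pair of lines. Between MDAMB231 and COLO205, 21 were higher and 2 lower in MDAMB231, but between COLO205 and HCT116, 9 were higher and 10 lower in COLO205, with a median difference of -0.03. The mesenchymal members of that pair had 2 higher and 8 lower, with a median of -1.52. Of 31 other intestinal genes, 11 did not pass the filter, and of the 20 tested 19 were higher in COLO205 than in HCT116. Several of these passed only through the line where they are high and had to differ, so the count is a description of which genes entered the test.

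After 16 h of ML-792, HCT116 changed at few of these genes. Of 35 tested, 1 rose and 4 fell, a share close to the 14.7% of all genes tested that changed (8.32% up, 6.42% down). The median change of the members was -0.01 on the log2 scale, beside 0.00 for all genes. KRT18 and KRT8, the filament partners of simple epithelium, fell. KRT18 read 498, 530 and 571 FPKM in DMSO and 443, 448 and 460 in ML-792. No libraries overlapped, and the change was -0.24 ± 0.048 on the log2 scale (SE, adjusted p = 0.00235). Its partner KRT8 read 743, 837 and 839 FPKM in DMSO and 654, 679 and 721 in ML-792, again without overlap (-0.23 ± 0.057, adjusted p = 0.0104). The KRT8 call ended without ML-792 replicate 3 or DMSO replicate 2 or 3 (adjusted p from 0.0519 to 0.0643). OVOL1, a zinc-finger factor that holds the epithelial state, read 2.13, 2.26 and 2.34 FPKM in DMSO and 1.57, 1.83 and 1.88 in ML-792 (-0.23 ± 0.052, adjusted p = 0.00593). All treated libraries lay below all controls, but the call ended when the trend on GC content and length was removed (adjusted p = 0.0968). LOXL2 read 7, 7.20 and 7.76 FPKM in DMSO and 5.98, 6.02 and 6.34 in ML-792 (-0.23 ± 0.07, adjusted p = 0.0381), and its call ended in the same way (adjusted p = 0.057) and without ML-792 replicate 2 or 3 or DMSO replicate 2 or 3 (adjusted p from 0.0766 to 0.161). EPCAM rose by 0.19 ± 0.058 (adjusted p = 0.0323), with overlapping libraries, from 113 to 130 FPKM, and its call ended under both other scalings (adjusted p = 0.0557 and 0.053). The count of called members was 2 or 3 without any of those 4 libraries.

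CDX2 was the only intestinal member of HCT116 at a level where a change could be seen. The other 9 tested, all under 0.3 FPKM there, passed the filter through another line and could hardly move with 1 FPKM added. CDX2 read 5.44, 5.53 and 6.63 FPKM in DMSO and 5.04, 5.35 and 5.90 in ML-792, an overlapping range. CDH1 (8.27 and 8.32 FPKM), VIM (4.03 and 3.70 FPKM) and ZEB1 (1.48 and 1.53 FPKM, DMSO and ML-792) did not pass either. Among the 34 other epithelial genes, 4 rose and 4 fell. The 2 with the smallest adjusted p were EHF, an ETS factor related to ELF3, and GRHL1, a grainyhead factor. EHF read 14.2, 14.8 and 14.9 FPKM in DMSO and 27.4, 28.6 and 31.1 in ML-792 (0.94 ± 0.048, adjusted p = 2.99e-10). GRHL1 read 2.26, 2.62 and 2.92 FPKM in DMSO and 7.14, 7.78 and 7.78 in ML-792 (1.25 ± 0.13, adjusted p = 8.1e-06). In both, all treated libraries were clear of the controls, with changes larger than that of any member in HCT116.

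**Figure D2:**
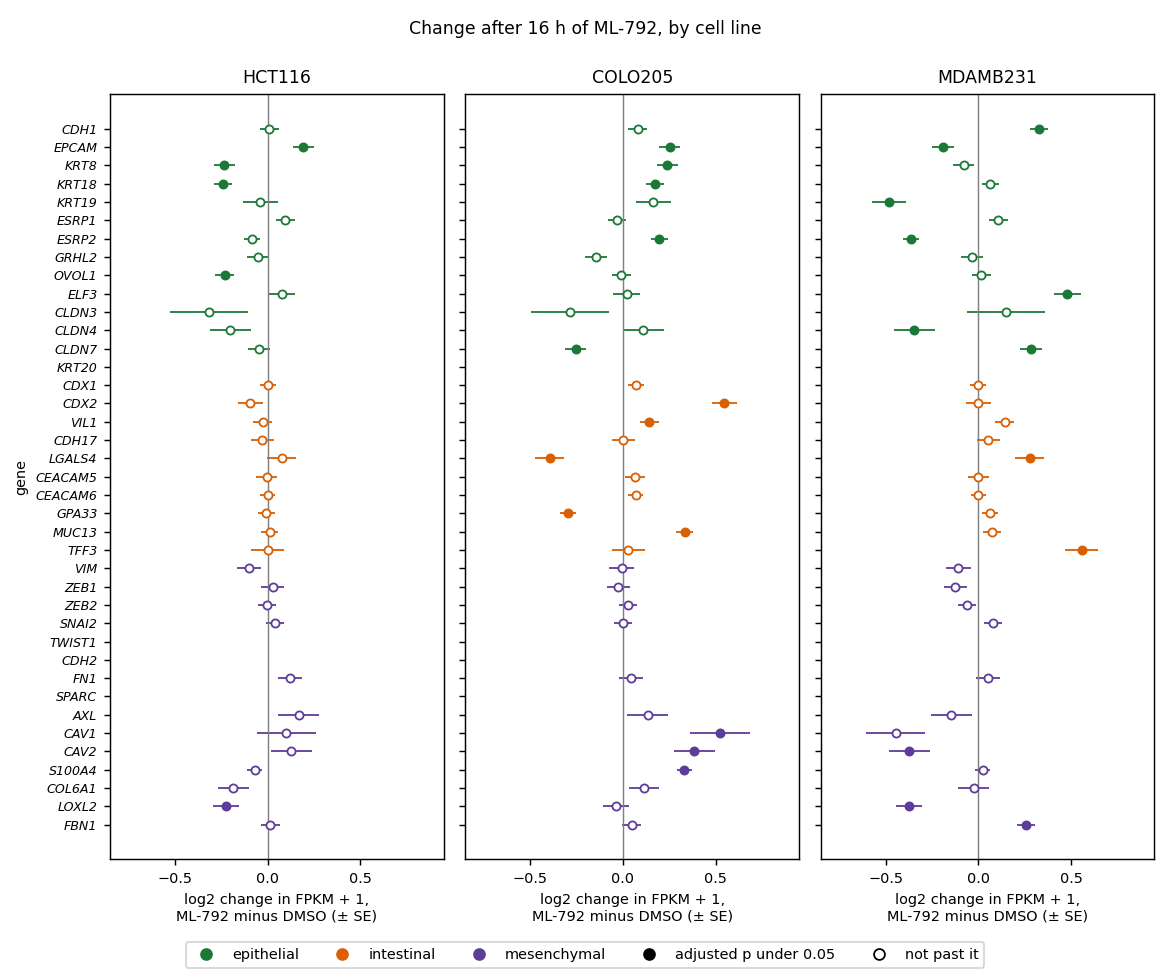
Change of each identity gene after 16 h of ML-792 (x axis: log2 difference of FPKM + 1, ML-792 minus DMSO, bars ± SE from limma, 3 libraries per group) in the 3 lines. Filled points had an adjusted p under 0.05, and the 4 genes without a point in every panel did not pass the filter on low values. KRT8 and KRT18 lie left of 0 in HCT116 and right of it in COLO205, while CAV1 and CAV2 lie right of 0 in COLO205 and left in MDAMB231.

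COLO205 showed more changes among the members than HCT116, with 10 rises and 3 falls of 35 tested. That share, 37.1%, was close to the 37% of all genes tested that changed in this line (19.4% up, 17.7% down). The median change of the members was 0.07, beside 0.01 for all genes. Intestinal genes moved in both directions: of 10 tested, CDX2, VIL1 and MUC13 rose and LGALS4 and GPA33 fell. CDX2 read 0.267, 0.268 and 0.288 FPKM in DMSO and 0.746, 0.787 and 1.07 in ML-792. The groups were far apart and the ratio of means was 3.16 (0.55 ± 0.069 on the log2 scale, adjusted p = 8.78e-06), although the treated level was still far below the 5.87 FPKM of HCT116 in DMSO.

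KRT20, the keratin of differentiated colonocytes, did not pass the filter. It read 0.157, 0.213 and 0.256 FPKM in DMSO and 0.764, 0.795 and 0.906 in ML-792, with no overlap and a ratio of means of 3.94. In a fit with no filter the change was 0.59 ± 0.067 (adjusted p = 1.14e-05), a setting in which the difference for KRT20 in HCT116 was 0.00 ± 0.067. MUC13 read 127, 128 and 131 FPKM in DMSO and 159, 160 and 169 in ML-792 (0.33 ± 0.047, adjusted p = 2.61e-05), and VIL1 rose by 0.14 ± 0.051 (adjusted p = 0.036, and 0.0878 with the GC and length trend removed). In the falling direction, LGALS4 read 233, 235 and 238 FPKM in DMSO and 162, 176 and 201 in ML-792 (-0.40 ± 0.078, adjusted p = 0.000743). GPA33 read 80.4, 81.8 and 81.9 FPKM in DMSO and 64.1, 64.4 and 69.7 in ML-792 (-0.30 ± 0.045, adjusted p = 6.59e-05). Libraries of the 2 groups were apart for these genes, but with a pseudocount of 0.1 the calls of LGALS4, GPA33 and MUC13 ended at almost unchanged differences (adjusted p = 0.227, 0.14 and 0.201). TFF3, CDH17, CDX1, CEACAM5 and CEACAM6 did not pass the test.

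Among the epithelial genes of COLO205, EPCAM, KRT8, KRT18 and ESRP2 rose and CLDN7 fell. EPCAM read 448, 475 and 478 FPKM in DMSO and 540, 555 and 574 in ML-792 (0.25 ± 0.058, adjusted p = 0.00248). KRT8 rose from 1600 to 1891 FPKM (0.24 ± 0.057, adjusted p = 0.00328), KRT18 from 1288 to 1452 FPKM (0.17 ± 0.048, adjusted p = 0.00925) and ESRP2 from 12.9 to 14.9 FPKM (0.20 ± 0.044, adjusted p = 0.00208), each without overlap. CLDN7, the claudin with 5 E-box matches in its window printed above, read 182, 185 and 195 FPKM in DMSO and 143, 162 and 165 in ML-792 (-0.26 ± 0.058, adjusted p = 0.00214), all treated libraries below all controls. CDH1 was at 96.8 and 102 FPKM and did not pass.

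Of 12 tested mesenchymal genes in COLO205, 3 rose and none fell in limma, and 3 had an unadjusted p under 0.05. S100A4, a calcium-binding protein of motile cells, read 550, 571 and 624 FPKM in DMSO and 703, 734 and 759 in ML-792 (0.33 ± 0.041, adjusted p = 6.99e-06), with the groups apart. CAV1 and CAV2, the partner proteins of caveolae, rose by 0.52 ± 0.16 (adjusted p = 0.0168) and 0.39 ± 0.11 (adjusted p = 0.0103), but with overlapping libraries: CAV1 read 2.34, 2.46 and 3.04 FPKM in DMSO and 2.89, 3.80 and 6.41 in ML-792. VIM was listed at 0 in all treated libraries, ZEB1 was at 0.591 and 0.559 FPKM, and SNAI2 stayed at or under 0.0277 FPKM. Of 20 tested among the other intestinal genes, 7 rose and 5 fell. AGR2, a secretory-cell protein folding factor, read 235, 248 and 252 FPKM in DMSO and 537, 543 and 577 in ML-792 (1.17 ± 0.051, adjusted p = 1.16e-11). ASCL2, a stem-cell factor of the crypt, read 12.3, 12.5 and 12.7 FPKM in DMSO and 19.3, 19.4 and 23.4 in ML-792 (0.68 ± 0.056, adjusted p = 4.79e-08). Both were apart in every library.

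In MDAMB231, 6 members rose and 6 fell of 35 tested, where 16.9% of all genes tested changed (8.38% up, 8.48% down). The median change of the members and of all genes was 0.00. Epithelial genes split, with CDH1, ELF3 and CLDN7 higher and EPCAM, KRT19, ESRP2 and CLDN4 lower. CDH1 read 0.368, 0.387 and 0.461 FPKM in DMSO and 0.640, 0.802 and 0.852 in ML-792. The groups did not overlap and the ratio of means was 1.89 (0.33 ± 0.051, adjusted p = 0.000163), at a level far below the 8.27 FPKM of HCT116. ELF3 read 5.15, 5.44 and 5.47 FPKM in DMSO and 7.47, 7.97 and 8.16 in ML-792 (0.48 ± 0.074, adjusted p = 0.000159). CLDN7 read 14.1, 14.4 and 14.8 FPKM in DMSO and 17.6, 17.6 and 18.2 in ML-792 (0.28 ± 0.058, adjusted p = 0.002). Each was higher in all 3 treated libraries.

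KRT19 read 259, 280 and 298 FPKM in DMSO and 186, 191 and 222 in ML-792 (-0.48 ± 0.093, adjusted p = 0.00139). ESRP2 read 2.85, 2.93 and 3.06 FPKM in DMSO and 1.95, 1.99 and 2.28 in ML-792 (-0.36 ± 0.044, adjusted p = 1.43e-05). CLDN4 fell from 77.7 to 61.3 FPKM (-0.35 ± 0.11, adjusted p = 0.0335) and EPCAM from 15.3 to 13.3 FPKM (-0.19 ± 0.058, adjusted p = 0.0303). Libraries of the DMSO and ML-792 groups were apart for these genes. The same treated libraries thus held higher CDH1, ELF3 and CLDN7 and lower KRT19, ESRP2, CLDN4 and EPCAM. The call of CLDN4 ended without ML-792 replicate 2 or 3 or DMSO replicate 2 or 3 (adjusted p from 0.0888 to 0.138).

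Of 12 tested mesenchymal genes in MDAMB231, FBN1 (fibrillin) rose and CAV2 and LOXL2 fell, 25% beside the 16.9% of all genes tested. LOXL2 read 102, 103 and 105 FPKM in DMSO and 76.4, 77.1 and 85.5 in ML-792 (-0.38 ± 0.07, adjusted p = 0.000915). CAV2 read 57.1, 57.6 and 57.6 FPKM in DMSO and 42.5, 44.8 and 45.2 in ML-792 (-0.37 ± 0.11, adjusted p = 0.0255), a call that ended without any single library of the 6 (adjusted p from 0.0515 to 0.0769). CAV1 read 373, 375 and 384 FPKM in DMSO and 268, 274 and 288 in ML-792, equally without overlap, yet its call was missed with the spread shared by all lines (-0.45 ± 0.16, adjusted p = 0.0667) and made in a fit of the MDAMB231 groups alone (adjusted p = 8.97e-05). VIM (885 and 822 FPKM), ZEB1 (10.4 and 9.45 FPKM), SNAI2 (16.2 and 17.2 FPKM), FN1 (54.9 and 57.0 FPKM) and AXL (181 and 164 FPKM, DMSO and ML-792) did not pass the test.

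SNAI1, the paralogue of SNAI2 and no member of the 39, had the smallest adjusted p of the 24 tested among other mesenchymal genes, of which 6 rose and 6 fell. It read 0.588, 0.881 and 0.911 FPKM in DMSO and 6.79, 6.88 and 7.44 in ML-792. The groups were far apart, with a ratio of means of 8.87 (2.17 ± 0.074, adjusted p = 1.5e-12), and the treated mean of 7.04 FPKM stood beside 6.67 in HCT116 with DMSO. A rise of this CDH1 repressor was thus measured in the same libraries as the rise of CDH1. Among other intestinal genes, SPINK4, a goblet-cell protease inhibitor, read 31.6, 35.1 and 35.9 FPKM in DMSO and 64.5, 65.6 and 65.6 in ML-792 (0.92 ± 0.062, adjusted p = 9.74e-09), and AGR2 rose from 19.6 to 30.4 FPKM (0.61 ± 0.051, adjusted p = 1.71e-07).

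Of 10 tested intestinal members in MDAMB231, TFF3 and LGALS4 rose. TFF3 read 0.617, 0.635 and 0.837 FPKM in DMSO and 1.09, 1.56 and 1.90 in ML-792 (0.56 ± 0.088, adjusted p = 0.000205). LGALS4 read 0.0255, 0.0431 and 0.0884 FPKM in DMSO and 0.128, 0.261 and 0.455 in ML-792 (0.28 ± 0.078, adjusted p = 0.0207, and 0.0742 with the GC and length trend removed). The same treated libraries held traces of COLO205 genes. In ML-792 replicates 1, 2 and 3, LGALS4 read 0.128, 0.261 and 0.455 FPKM, while TFF3 read 1.56, 1.90 and 1.09 FPKM. Traces were summed over 29 genes at 50 FPKM or more in COLO205 and under 0.1 FPKM in MDAMB231, both in every DMSO library. The summed level was 0.023%, 0.0949% and 0.149% of that of COLO205 in ML-792 replicates 1, 2 and 3, against 0.00711% to 0.00925% in DMSO. The rule fixed low values in those DMSO libraries in advance, so they are not an independent control. LGALS4 met the rule and is part of the sum. The rise of LGALS4 was 0.0974% of its COLO205 level, that of CDH1 was 0.371% and that of TFF3 was 0.77%. CDH1 read 0.640, 0.802 and 0.852 FPKM in ML-792 replicates 1, 2 and 3, against 0.368 to 0.461 FPKM in DMSO. LYZ, at 795 FPKM in COLO205, rose in MDAMB231 from 0.439 to 1.09 FPKM, and the summed list of 14 blood, endothelial, liver, muscle, glial and melanocyte markers to which it belongs went from 1.98-2.49 to 3.06-3.69 FPKM. The part of these traces in the rises of LGALS4, TFF3 and CDH1 was not tested.

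**Figure D3:**
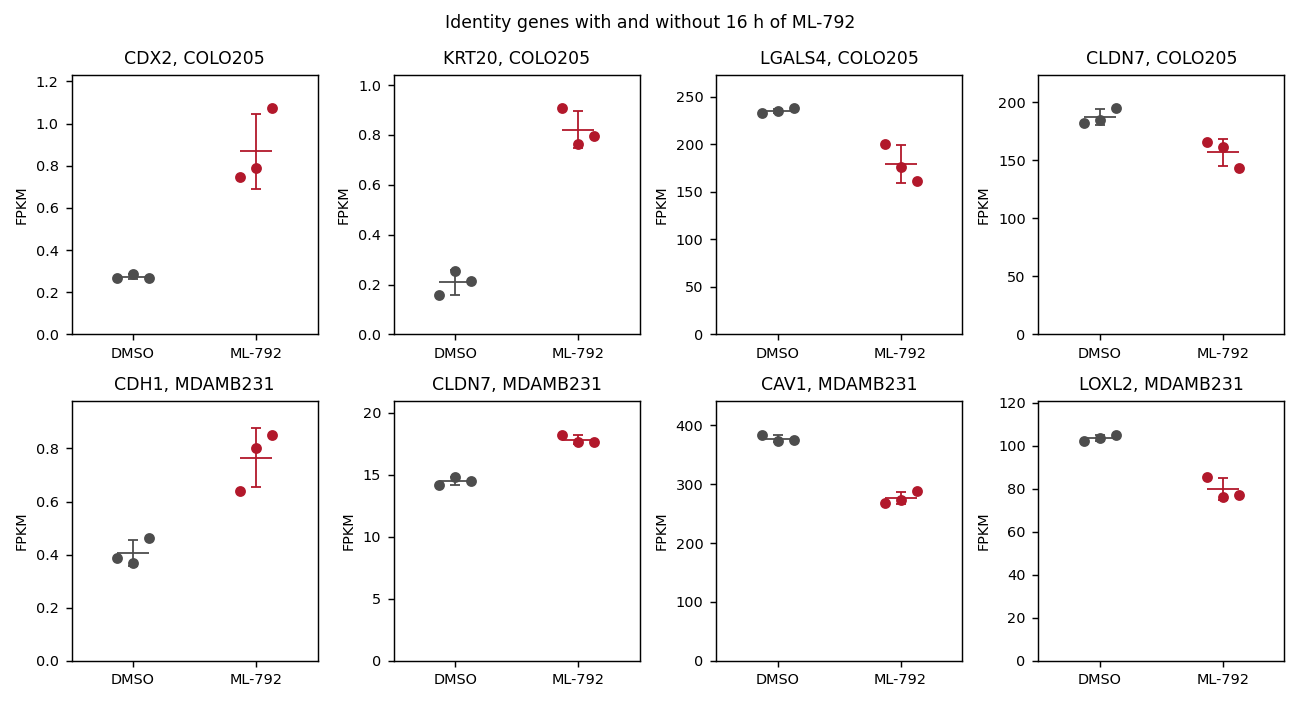
FPKM of 7 identity genes in single libraries (points) of COLO205 (CDX2, KRT20, LGALS4, CLDN7) and MDAMB231 (CDH1, CLDN7, CAV1, LOXL2) after 16 h of DMSO (grey) or ML-792 (red), with the mean and SD of 3 libraries. No panel has overlapping groups, and CLDN7 is lower with ML-792 in COLO205 and higher in MDAMB231.

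The response to ML-792 was compared between lines as a difference of changes, in which the lines share no libraries within a pair while each line enters 2 of the 3 pairs. Between COLO205 and HCT116, 9 of 35 members differed (19.4% of all genes tested, 9.66% higher and 9.75% lower in COLO205), with the higher change in COLO205 for 7 and in HCT116 for 2. KRT8 changed by 0.24 in COLO205 and -0.23 in HCT116 (difference 0.47 ± 0.081, adjusted p = 0.000509), and KRT18 by 0.17 and -0.24 (0.41 ± 0.068, adjusted p = 0.00035). The paired keratins thus moved together within each line and in opposite directions between the lines. CDX2 differed by 0.64 ± 0.098 (adjusted p = 0.000177). LGALS4, GPA33 and MUC13 were also called, but all were under 0.3 FPKM in HCT116, so their differences repeat the changes of COLO205.

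Between MDAMB231 and HCT116, 11 of 35 differed (10.8% of all genes tested, 4.93% higher and 5.84% lower in MDAMB231), with the higher change in MDAMB231 for 7 and in HCT116 for 4. CDH1 was among them (0.32 ± 0.072, adjusted p = 0.00746), as was EPCAM, which fell in MDAMB231 and rose in HCT116 (-0.39 ± 0.082, adjusted p = 0.00513). TFF3, listed at 0 in HCT116, was called on its change in MDAMB231 alone. MDAMB231 and COLO205 differed at 18 of 35 members (26% of all genes tested, 12% higher and 14% lower in MDAMB231), with the higher change in MDAMB231 for 7 and in COLO205 for 11. The count includes intestinal genes that were low in MDAMB231. CDX2 was listed at 0 there, and GPA33 and MUC13 were at no more than 0.1175 and 0.1162 FPKM. Their differences mostly repeat the changes of COLO205. LGALS4, also called, was at no more than 0.455 FPKM in MDAMB231. CLDN7 rose in MDAMB231 and fell in COLO205 (0.54 ± 0.082, adjusted p = 0.000122). ESRP2 fell in MDAMB231 and rose in COLO205 (-0.56 ± 0.063, adjusted p = 5.23e-06). The caveolin genes, which neighbour each other on chromosome 7, differed most, CAV1 by -0.97 ± 0.22 (adjusted p = 0.00502) and CAV2 by -0.76 ± 0.15 (adjusted p = 0.0017). No member was called in the same direction in all 3 lines, and EPCAM was the only member called in all 3. Its HCT116 call had overlapping libraries and ended under both other scalings. The count for MDAMB231 against HCT116 was 7 without HCT116 DMSO replicate 1 or 2, MDAMB231 ML-792 replicate 2 or 3, or MDAMB231 DMSO replicate 3.

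At 3.5 h without heat shock, ELF3 was the only member of 24 tested that changed in HCT116, where 1.21% of all genes tested changed (1.02% up, 0.189% down). It read 12, 12.8 and 13 FPKM in DMSO and 18.5, 18.7 and 20.2 in ML-792. All treated libraries lay above all controls, with a ratio of means of 1.52 (0.57 ± 0.065, adjusted p = 0.000435). OVOL1 read 3.52, 3.53 and 3.54 FPKM in DMSO and 2.44, 2.47 and 2.61 in ML-792, without overlap, and missed the threshold (-0.37 ± 0.084, adjusted p = 0.0612). CDH1 (11.3 and 11.8 FPKM), ZEB1 (0.941 and 1.21 FPKM) and CDX2 (5.39 and 4.77 FPKM, DMSO and ML-792) did not pass. EHF, the ETS factor that rose at 16 h, was the only other epithelial gene of 33 tested to change, from 14.3, 14.7 and 14.9 to 23.3, 23.4 and 23.6 FPKM (0.64 ± 0.082, adjusted p = 0.00117).

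The change of ELF3 at 3.5 h exceeded that at 16 h, when ELF3 read 14.7, 17.1 and 18.6 FPKM in DMSO and 17.3, 17.6 and 18.1 in ML-792 (difference of changes -0.49 ± 0.094, adjusted p = 0.0137). KRT18 differed too, at 0.04 at 3.5 h and -0.24 at 16 h (-0.28 ± 0.066, adjusted p = 0.0369). These were 2 of 23 members tested, both lower at 16 h, against 2.4% of all genes (1.12% higher, 1.28% lower at 16 h). Without ML-792 replicate 1 of 16 h the count was 5. The KRT18 difference was no longer called without ML-792 replicate 2 or 3 or DMSO replicate 2 or 3 of 16 h, or without any library of 3.5 h (adjusted p from 0.0512 to 0.105). The 2 times come from separate experiments with different library number series, so time and experiment cannot be told apart. The DMSO levels themselves differed between them, with VIM at 0.970 FPKM at 3.5 h and 4.03 at 16 h, CAV1 at 226 and 106 FPKM, and CLDN3 at 1.28 and 6.83 FPKM.

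Heat shock without drug changed 17 of 24 tested members in HCT116, 12 upward and 5 downward, where 49.5% of all genes tested changed (28.9% up, 20.6% down). The largest rises were in transcription factors of both identities. SNAI2 read 0.0646, 0.0702 and 0.0833 FPKM without heat shock and 1.79, 1.98 and 2.27 with it, a ratio of means of 27.7 from a very low level. It passed the filter only through the heat-shocked libraries, so it had to differ, and its change (1.49 ± 0.066 on the log2 scale) is given as a description although the count includes it. OVOL1 read 3.52, 3.53 and 3.54 FPKM without and 9.11, 9.89 and 10.3 with heat shock (1.25 ± 0.084, adjusted p = 1.13e-07). ELF3 rose to 19.7, 21.5 and 22.7 FPKM (0.71 ± 0.065, adjusted p = 1.79e-06). SNAI2, a factor of the mesenchymal transition, and OVOL1 and ELF3, factors of the epithelial state, were all higher after heat shock, each without overlap.

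EPCAM rose from 207 to 293 FPKM (0.50 ± 0.084, adjusted p = 0.000346), CLDN4 from 27.3 to 39.3 FPKM (0.51 ± 0.084, adjusted p = 0.000308) and ZEB1 from 0.941 to 1.55 FPKM (0.39 ± 0.08, adjusted p = 0.00139). CDH1, at 11.3 and 12.3 FPKM, did not pass. ESRP2 read 16.9, 17.0 and 17.6 FPKM without and 10.9, 11.3 and 12.2 with heat shock (-0.54 ± 0.072, adjusted p = 5.13e-05), and ESRP1 fell with it (-0.28 ± 0.059, adjusted p = 0.00184). CAV2 fell from 65.7 to 46.7 FPKM (-0.49 ± 0.068, adjusted p = 7.85e-05) and CAV1 from 226 to 189 FPKM (-0.26 ± 0.057, adjusted p = 0.00249). Heat-shocked libraries also had larger summed FPKM (608100 to 732300 against 553000 to 576000), and dividing by equal totals moved the median change of all genes from 0.05 to -0.16. On that scaling the rises of KRT8, KRT18, VIM, AXL, S100A4 and COL6A1 were no longer called, while the named changes of OVOL1, ELF3, EPCAM, CLDN4, ZEB1, ESRP1, ESRP2, CAV1 and CAV2 kept direction and call.

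In ML-792, heat shock changed 14 of 24 members, 10 upward and 4 downward (61.7% of all genes tested, 39.3% up and 22.3% down). OVOL1 rose from 2.51 to 9.99 FPKM (1.64 ± 0.084, adjusted p = 8.52e-09) and COL6A1 from 15.3 to 23.1 FPKM (0.56 ± 0.088, adjusted p = 0.000182). SNAI2, again in the test through these libraries, went from 0.0741 to a range of 1.07 to 1.19 FPKM. ESRP1 (-0.45), CAV1 (-0.41), CAV2 (-0.40) and ESRP2 (-0.37 on the log2 scale) fell again. KRT18 (0.23) and GRHL2 (0.19) were called as rises but turned to -0.07 and -0.06 with equal totals, so no direction is given for them. The rise of S100A4 (0.48 ± 0.1, adjusted p = 0.0015) shrank to 0.03 (adjusted p = 0.565) with the GC and length trend removed. Of other mesenchymal genes, COL1A1, the main chain of collagen I, rose from 1.59 to 14.6 FPKM with heat shock in DMSO (2.59 ± 0.075, adjusted p = 4.17e-11) and from 1.59 to 16.5 FPKM in ML-792 (2.76 ± 0.075, adjusted p = 2.27e-11). LGALS4, which did not pass the filter, read 0.570 FPKM in ML-792 heat-shock replicate 2. Summed COLO205 traces (25 genes, chosen on HCT116 DMSO libraries of 16 h as above for MDAMB231) were 0.0821% of the COLO205 level there. They were 0.0286% to 0.0415% in the other heat-shocked libraries. LGALS4 is among those 25 genes, so its own reading is part of the sum. The heat-shock comparisons and those of ML-792 at 3.5 h share groups, so their counts are not independent.

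**Figure D4:**
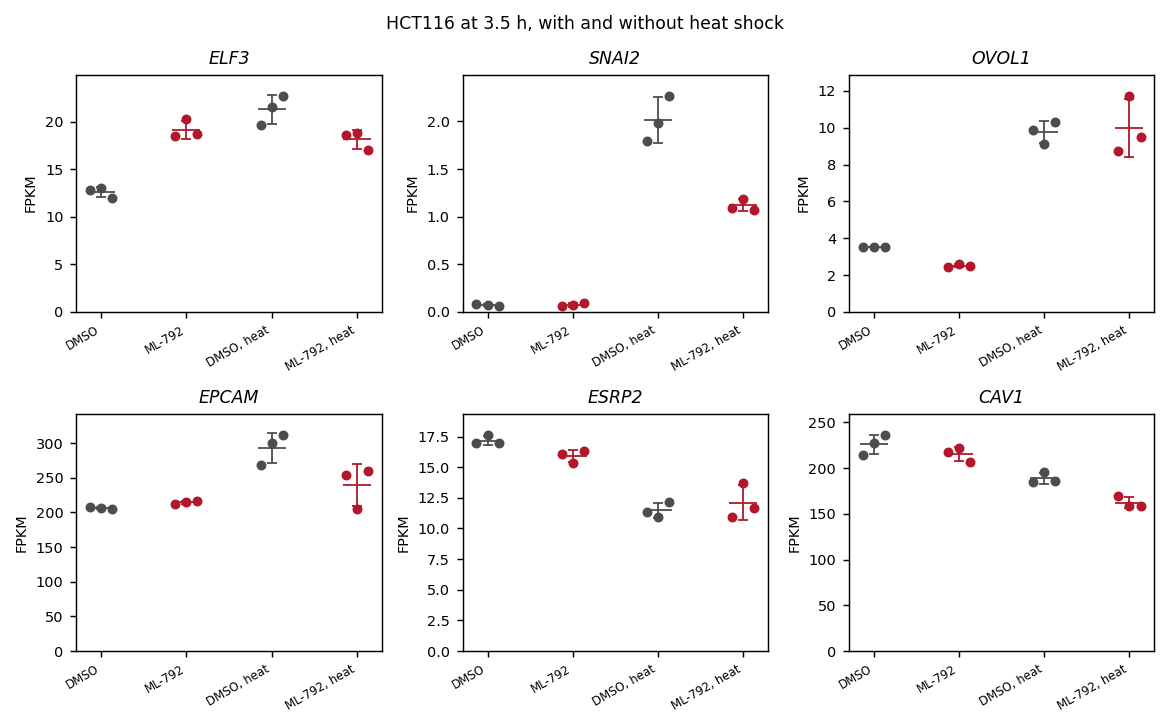
FPKM of 6 identity genes in single HCT116 libraries (points) at 3.5 h, with DMSO (grey) or ML-792 (red), without and with heat shock, and the mean and SD of 3 libraries. ELF3 is raised by either treatment alone, and SNAI2 appears after heat shock and is lower where ML-792 was present.

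With heat shock in both groups, ML-792 changed 9 of 24 members, 3 upward and 6 downward (33.5% of all genes tested, 18.4% up and 15.1% down). SNAI2 read 1.79, 1.98 and 2.27 FPKM in DMSO and 1.07, 1.09 and 1.19 in ML-792 (-0.51 ± 0.066, adjusted p = 0.000755). EPCAM read 269, 300 and 311 FPKM in DMSO and 206, 254 and 260 in ML-792 (-0.30 ± 0.084, adjusted p = 0.02). CAV1 read 185, 186 and 195 FPKM in DMSO and 158, 159 and 169 in ML-792 (-0.22 ± 0.057, adjusted p = 0.0149). ELF3 read 19.7, 21.5 and 22.7 FPKM in DMSO and 17.0, 18.6 and 18.8 in ML-792 (-0.22 ± 0.065, adjusted p = 0.0235). In these genes every treated library was below every control. CLDN4 (-0.25) and AXL (-0.14) fell as well, and FN1 (0.43), COL6A1 (0.29) and LOXL2 (0.22) rose, the last pair losing their calls under both other scalings and with the GC and length trend removed (0.06 and 0.04). FN1 read 1.16, 1.27 and 1.39 FPKM in DMSO and 1.42, 2.32 and 2.53 in ML-792. The library at 2.53, ML-792 heat-shock replicate 1, also held fibroblast markers, with COL3A1 at 0.757 FPKM, COL1A2 at 0.636, SPARC at 0.435, MMP2 at 0.263 and DCN at 0.174. In the other 5 heat-shocked libraries SPARC was at no more than 0.104 FPKM, MMP2 at no more than 0.0119, COL1A2 at no more than 0.0108 and COL3A1 at no more than 0.0102, and DCN was listed at 0. Without ML-792 heat-shock replicate 1 the FN1 change was 0.32 (adjusted p = 0.0463). The FN1 call ended without ML-792 heat-shock replicate 2 (adjusted p = 0.0566) or DMSO heat-shock replicate 2 (adjusted p = 0.0544). SNAI2 was the only call left when these 2 groups were fitted alone, and the count was 1 without DMSO heat-shock replicate 2 and 5 without ML-792 heat-shock replicate 2. The ELF3 call also ended without DMSO heat-shock replicate 3 or ML-792 heat-shock replicate 3 (adjusted p up to 0.0803 over the libraries left out), and that of CLDN4 without DMSO heat-shock replicate 3 or ML-792 heat-shock replicate 1 (up to 0.122).

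The effect of ML-792 differed with heat shock for 2 of 24 members (6.41% of all genes tested, 2.48% with a higher and 3.93% with a lower change after heat shock). ELF3 changed by 0.57 without and by -0.22 with heat shock, a difference of -0.79 ± 0.091 (adjusted p = 0.000724). SNAI2 changed by 0.00 and by -0.51, a difference of -0.51 ± 0.093 (adjusted p = 0.0184, and 0.0769 with the GC and length trend removed). Without heat shock SNAI2 was at 0.0727 and 0.0741 FPKM and could hardly change on this scale, so this difference restates the one with heat shock. The ELF3 levels after ML-792 alone (19.2 FPKM), heat shock alone (21.3 FPKM) and both (18.1 FPKM) lay within a narrow band above the 12.6 FPKM of cells with DMSO alone. The count for this difference of changes was 1 without DMSO heat-shock replicate 2, without any of the 3 DMSO replicates or without ML-792 replicate 2 or 3 of the cells without heat shock, and 4 and 6 without ML-792 heat-shock replicates 1 and 3. Heat-shocked and other libraries carry different number series in the labels, so heat shock and series cannot be told apart.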

How the data were processed

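The deposited table gives FPKM, the authors' fragment values scaled to transcript length and library total, for 30373 genes in 30 polyadenylated RNA libraries. DESeq2 1.10.1 is named in the submitters' processing notes; the sources used here name no aligner, annotation or genome build. FPKM are not counts, so no count test was run. Genes with 1 FPKM in at least 3 libraries were tested on log2(FPKM + 1) with limma 3.58.1 (R 4.3.3; trend and robust variance) in 3 fits: 18 libraries of 16 h (14251 genes), 12 of 3.5 h (12191) and 12 of HCT116 without heat shock at both times (12462). In all, 15 comparisons were made, with Benjamini-Hochberg adjustment over all genes of each.

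In a table simulated for the COLO205 comparison (14153 genes), 87.9% of changes of 0.5 and 90% of changes of 1 on the log2 scale were recovered, and 8.29% of the calls were false, above the 5% the threshold aims at. For HCT116 at 3.5 h (12131 genes) 76% and 100% were recovered, with 3.83% of calls false.

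The members and all marker lists were chosen with earlier results of these data known. Values, by library or as group means, are given for CDH1, EPCAM, CDX2, VIM and ZEB1, for the 2 members per class that differed most between lines, and for up to 8 called members per treatment comparison with the largest changes and no overlap (5 for differences of changes). Genes beyond this were chosen after their values were seen. From each further list the 2 genes with the smallest adjusted p are named. Alternatives were the pseudocount, filter, scaling, variance settings, groups fitted, GC content and length, and leaving out each library. The labels state biological triplicates and no more about their source, and depth is known only as a ratio between libraries.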

Additional observations from a re-analysis of the deposited data

Results flagged for a closer look

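Responses to ML-792 that differed between lines, by the limma test of the difference of changes, were led by these members. COLO205 minus HCT116 was 0.641 for CDX2 (adjusted p = 0.000177), 0.474 for KRT8 (0.000509), -0.471 for LGALS4 (0.00623), which at 0.0338 and 0.0896 FPKM in HCT116 had no level there that could fall, 0.413 for KRT18 (0.00035) and 0.401 for S100A4 (0.000101). MDAMB231 minus HCT116 was 0.558 for TFF3 (0.00709), which is listed at 0 in HCT116, -0.501 for CAV2 (0.0464), -0.444 for KRT19 (0.039), 0.404 for ELF3 (0.0183) and -0.385 for EPCAM (0.00513). MDAMB231 minus COLO205 was -0.97 for CAV1 (0.00502), -0.757 for CAV2 (0.0017), 0.672 for LGALS4 (0.000258), -0.647 for KRT19 (0.00172) and -0.559 for ESRP2 (5.23e-06). LGALS4 was at no more than 0.455 FPKM in any MDAMB231 library. Within HCT116, the response with heat shock minus that without was -0.788 for ELF3 (adjusted p = 0.000724) and -0.508 for SNAI2 (0.0184), which was under 0.1 FPKM without heat shock. The response at 16 h minus that at 3.5 h was -0.493 for ELF3 (0.0137) and -0.283 for KRT18 (0.0369). The MDAMB231 minus HCT116 differences of CAV2 and KRT19 were no longer called in 11 and 8 of the 12 fits that each left out 1 library (adjusted p from 0.0622 to 0.122 and from 0.0653 to 0.0939).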

How the results depend on the processing

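Of 1332 results by setting for the members chosen by rule, 1221 kept direction and call, 111 kept direction and lost the call, and 0 reversed. The rule took the largest changes, and in vehicle the largest differences between lines, which could hardly lose a call. The total thus says little about the smaller changes with treatment. Without HCT116 DMSO heat-shock replicate 2, for example, 10 of 18 kept direction and call. Among called members not chosen by this rule, 3 changed sign under another scaling or with the GC and length trend removed. These were ESRP2 in vehicle, COLO205 minus HCT116 (-0.17 to 0.08), and KRT18 and GRHL2 after heat shock in ML-792 (0.23 and 0.19 to -0.07 and -0.06). The HCT116 count at 16 h, 5, was 3 with a pseudocount of 0.1, with only the groups compared and with the GC and length trend removed. The HCT116 count at 3.5 h, 1, was 2 with a pseudocount of 0.1, median-of-ratios scaling, equal totals, only the groups compared and the GC and length trend removed. With heat shock it fell from 9 to 1 with only the groups compared. The count for heat shock by ML-792, 2, was 1 with a filter at 5 FPKM and 4 with median-of-ratios scaling, and that for 16 h against 3.5 h, 2, was 1 with no filter and with neither trend nor robust variance. The cause of these moves was not tested. Without each replicate in turn, counts ran from 2 to 7 (HCT116, 16 h), 11 to 13 (COLO205), 8 to 11 (MDAMB231), 1 to 1 (HCT116, 3.5 h), 1 to 8 (with heat shock), 13 to 16 and 12 to 16 (heat shock in DMSO and in ML-792), 8 to 10, 7 to 11 and 16 to 18 (differences between lines), 1 to 6 (heat shock by ML-792) and 1 to 5 (16 h against 3.5 h). In vehicle they ran from 33 to 33, 27 to 28 and 34 to 34. With a pseudocount of 5 the CDH1 change in MDAMB231 was 0.09 (adjusted p = 0.0655), and with 0.1 that of LOXL2 had an adjusted p of 0.0517. No paired analysis was possible because replicates carry no number that ties a treated library to a control.

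Levels under about 1 FPKM rest on few fragments, and the added 1 FPKM shrinks their differences. The heat-shocked groups had the widest replicate spread, and their scaling moved calls.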

Other observations

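Further marker genes changed beyond those described. In COLO205, ML-792 lowered S100A14, an epithelial calcium-binding protein, from 36.3 to 23.9 FPKM (-0.59 ± 0.067, adjusted p = 3.1e-06 in limma) and raised SPINT1, an epithelial protease inhibitor, from 76.9 to 101 FPKM (0.39 ± 0.057, adjusted p = 4.99e-05). In MDAMB231 it lowered MAL2, an apical transport protein, from 8.07 to 4.92 FPKM (-0.62 ± 0.065, adjusted p = 2.78e-06) and the luminal factor GATA3 from 3.08 to 2.11 FPKM (-0.40 ± 0.055, adjusted p = 5.54e-05). GATA3 also fell in COLO205, from 5.33 to 3.87 FPKM (-0.38 ± 0.055, adjusted p = 3.77e-05).

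LUM, a small proteoglycan of connective tissue, was higher with ML-792 at low levels in both lines. It went from 0.170 to 0.637 FPKM in COLO205 (0.49 ± 0.053, adjusted p = 1.77e-06 in limma) and from 0.678 to 1.32 FPKM in MDAMB231 (0.46 ± 0.053). Of these groups, only MDAMB231 with ML-792 had a mean at the filter level of 1 FPKM. The LUM change in MDAMB231 is thus given as a description. After heat shock in HCT116 with DMSO, GRHL1 rose from 2.64 to 6.33 FPKM (1.01 ± 0.062, adjusted p = 4.29e-08). HBA1, a haemoglobin chain, rose there from 1.13 to 6.66 FPKM (1.87 ± 0.28, adjusted p = 0.000322). Its means without heat shock, 1.13 FPKM in DMSO and 0.847 in ML-792, were near the filter level. Its entry into the test may thus rest on the heat-shocked libraries. The summed list of 14 markers to which HBA1 belongs ran from 1.24 to 5.19 FPKM in the DMSO libraries without heat shock. FOXA1, a pioneer factor of luminal and gut epithelium, went from 0.583 to 1.80 FPKM (0.82 ± 0.067). Without heat shock it averaged 0.583 FPKM in DMSO and 0.406 FPKM in ML-792. FOXA1 thus entered the test through the heat-shocked libraries and had to differ, so its change is given as a description.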
